A study of Mus musculus with 9 samples.

Results

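The 10 long noncoding RNAs Malat1, Neat1, Meg3, Rian, Miat, Snhg11, Sox2ot, Pantr1, Gas5 and H19 were followed in the injured mouse spinal cord. They were taken by name from a list of such RNAs known from neural tissue, and all 10 were found among the 52550 genes of the count table. Spinal cord was collected from 9 adult female C57BL/6N mice 7 days after surgery, with 3 mice in each group. Sham mice had the vertebral plates over T10 removed without a contusion. SCI mice received a contusion at that level and then the vehicle DMSO into the peritoneum, and SCI+FIPI mice received the same contusion and FIPI, an inhibitor of phospholipase D. No injection is described for the Sham mice, so that contusion and vehicle cannot be told apart in the comparison of SCI with Sham. All 9 mice had the laminectomy, are of the same sex and strain, and gave a segment that holds every cell type at the injury epicenter, including cells that entered it.

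Long noncoding RNAs are transcripts that are processed much like messenger RNAs but are not read into protein. Malat1 and Neat1 stay in the nucleus, where Malat1 gathers in nuclear speckles and Neat1 is the scaffold of paraspeckles. Meg3, Rian and H19 are imprinted and are made from the maternal chromosome, Miat and Snhg11 are found mainly in neurons, Sox2ot and Pantr1 lie beside genes for transcription factors of neural progenitors and glia, and Gas5 carries small nucleolar RNAs in its introns. In total RNA of one tissue, fewer cells of a type and less RNA per cell cannot be told apart, and this applies to every comparison below.

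Total counts per mouse lay between 20806000 and 24582377, and 18699 genes passed the filter on low counts, among them all 10 RNAs. Markers of neurons summed to 8912 to 9855 CPM (counts scaled to the size of the library) in Sham mice, 2986 to 3996 in SCI mice and 4625 to 5314 in SCI+FIPI mice. All 16 neuron markers fell in SCI against Sham, with a median log2 fold change of -1.50, beside 22.5% of all genes tested. All 9 macrophage markers (median 4.55), all 9 fibroblast markers (median 3.78) and all 8 markers of dividing cells (median 3.36) rose, beside 24.4%. Both directions follow the limits given below for a call.

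The word abundant held for some of the RNAs and not for others. Ranked by mean CPM in Sham mice, Meg3 was number 8 of all genes tested and number 1 among long noncoding genes, and Snhg11 was number 36. Neat1 was number 159, Rian 211, Malat1 224 and Miat 493. H19, at number 10132, and Pantr1, at number 11984, were not abundant in the uninjured cord. In SCI mice H19 stood at number 158. Together the 10 RNAs took 0.783% to 0.840% of all counts in Sham mice, 0.530% to 0.559% in SCI mice and 0.591% to 0.645% in SCI+FIPI mice, and the groups did not overlap.

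Levels between the RNAs were compared per length, as counts per kilobase of exon scaled to the library (FPKM). In Sham mice Meg3 was highest with a mean of 245 FPKM, followed by Snhg11 with 198 and Malat1 with 64.5. Miat with 30.2, Neat1 with 27.3 and Rian with 25.6 came next, and neighbours in that order overlapped between mice. Gas5 followed with 14.3, and Sox2ot with 8.39, H19 with 4.99 and Pantr1 with 1.36 closed the order, in which H19 overlapped both of its neighbours. In SCI mice H19 was the highest of the 10 with 219 FPKM, above Meg3 with 118 and Snhg11 with 88.9, and Neat1 with 60.3 stood above Malat1 with 44.9. Only Gas5 (17.4) and Miat (15.8) overlapped as neighbours there. In SCI+FIPI mice H19 was again first with 183.5, Malat1 with 59.4 and Neat1 with 51.9 overlapped, and the other neighbours did not.

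To find which of these RNAs differ after contusion, SCI was compared with Sham. A gene was called higher or lower when its log2 fold change was at least 0.5 in size and its adjusted p in the edgeR quasi-likelihood test was under 0.05. Neat1 and H19 rose, and Meg3, Miat, Rian, Snhg11, Sox2ot and Pantr1 fell. Thus 2 of 10 were called higher, beside 24.4% of all genes tested, and 6 of 10 were called lower, beside 22.5%. Malat1 was lower and Gas5 higher in every SCI mouse than in every Sham mouse, and both had an adjusted p under 0.05, but neither reached the limit on the fold change. No RNA of the 10 overlapped between the groups, with 3 above Sham (35.6% of all genes) and 7 below (35.0%). The median log2 fold change of the 10 was -0.82, beside -0.26 over 1822 genes of long noncoding biotypes and -0.003 over all genes tested.

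**Figure D1:**
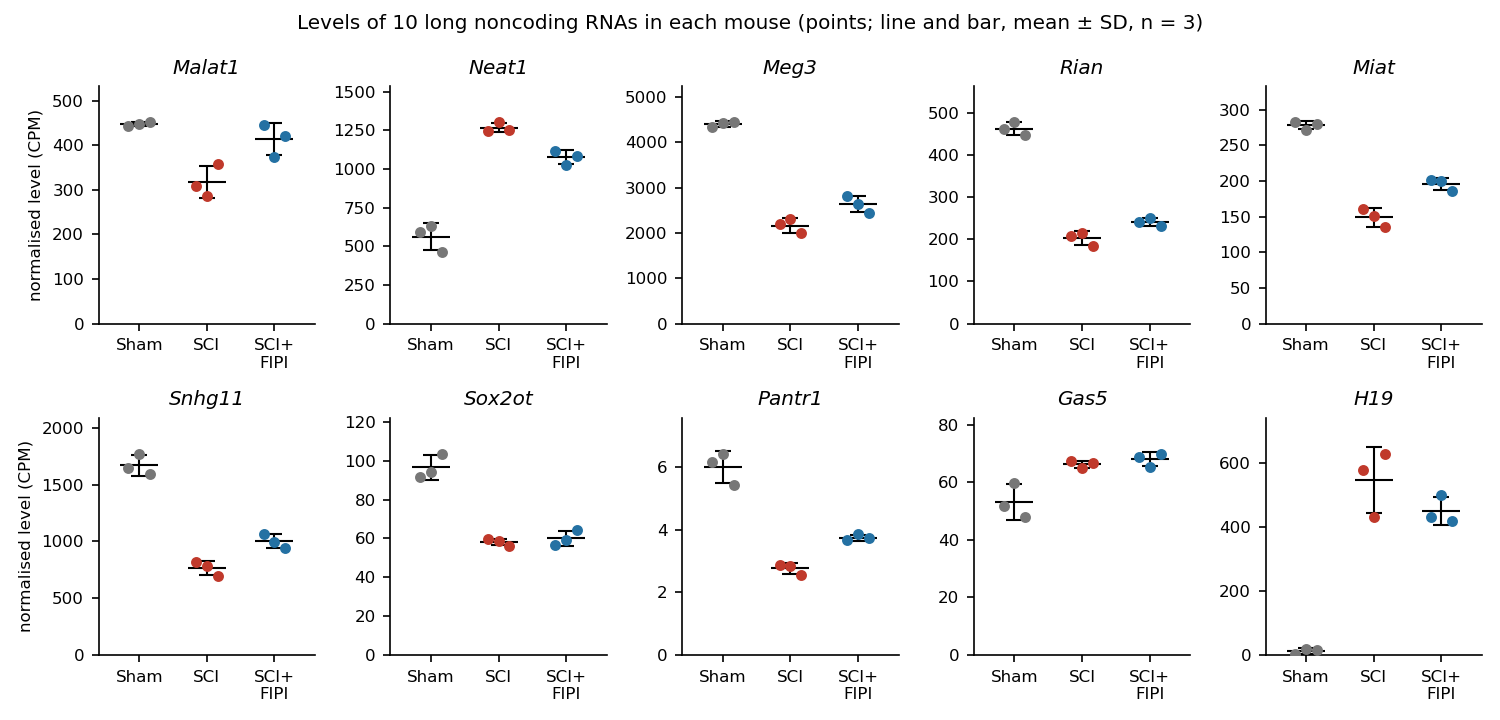
Normalised level in CPM (vertical axes, linear from 0) of each of the 10 RNAs in each mouse (points), with the mean and SD of the 3 mice of each group. Neat1, Gas5 and H19 lie higher in all 3 SCI mice than in all 3 Sham mice, and the other 7 RNAs lie lower.

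The effect of FIPI on the injured cord was addressed by comparing SCI+FIPI with SCI. No RNA of the 10 was called in either direction, beside 2.36% of all genes called higher and 0.695% called lower. In the same edgeR test 7 of 10 had an unadjusted p under 0.05, beside 25.2% of all genes, and DESeq2 and limma-voom with the same limits also called none. With the adjusted p alone 5 of 10 were higher, which were Malat1, Meg3, Miat, Rian and Snhg11, beside 6.04% of all genes. Pantr1 joined these 5 in having every SCI+FIPI mouse above every SCI mouse (6 of 10, beside 15.7% of all genes), and Neat1 was the only RNA with every mouse below (14.5% of all genes). The median log2 fold change of the 10 was 0.27, beside 0.09 over the long noncoding biotypes and -0.001 over all genes. Of the 16 neuron markers, 8 rose in this comparison, 15 were higher by the adjusted p alone and all 16 had a fold change above 0, with a median of 0.50.

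Against Sham, SCI+FIPI mice still had Neat1 and H19 higher (2 of 10, beside 21.2% of all genes) and Meg3, Miat, Rian, Snhg11, Sox2ot and Pantr1 lower (6 of 10, beside 17%). All but Malat1 were separate between these groups, with 3 above Sham (33.4% of all genes) and 6 below (32.9%). Malat1 overlapped between these groups, with a log2 fold change of -0.11 ± 0.08 (SE, n = 3 per group) and an adjusted p of 0.262 in the edgeR test. The SCI mice and the Sham mice each serve in 2 of these comparisons, so that the comparisons are not independent of each other.

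**Figure D2:**
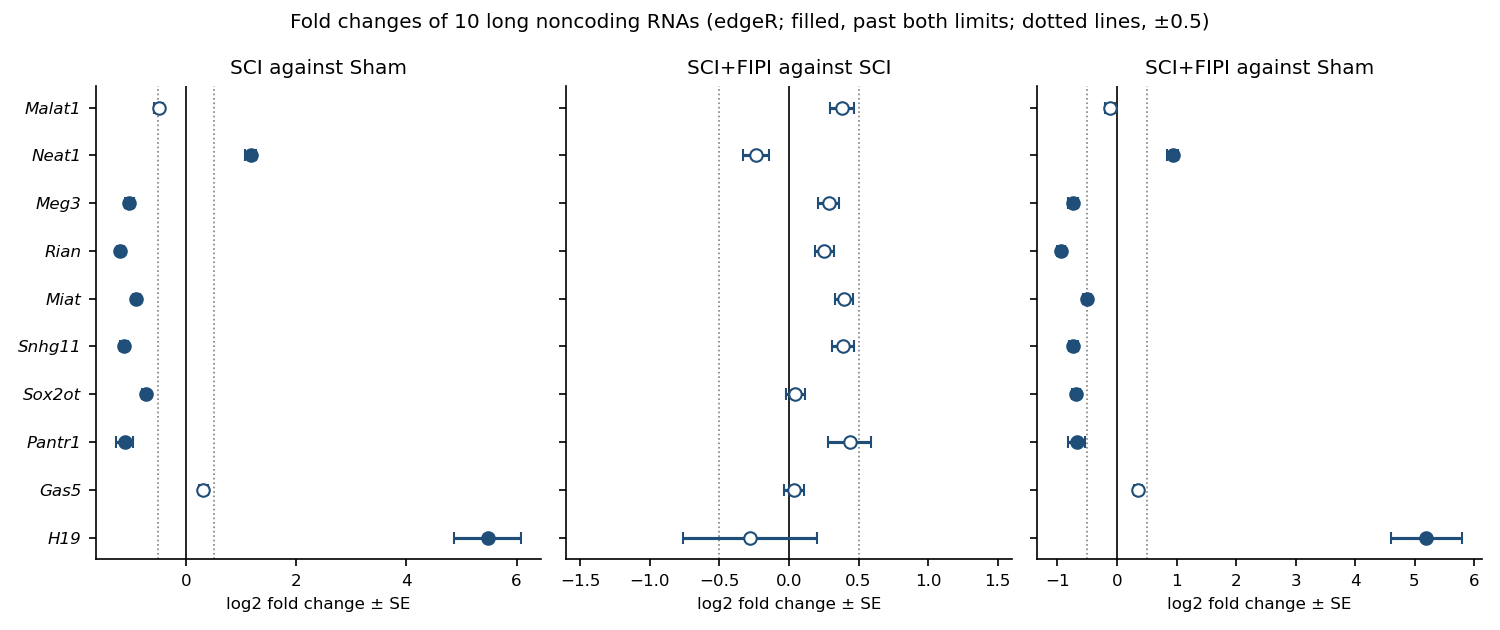
Log2 fold change with its SE (horizontal axes, which differ between panels) of each RNA in the 3 comparisons, from the edgeR model of all 9 mice, with filled points past both limits and dotted lines at 0.5 and -0.5. In SCI against Sham 8 points are filled, in SCI+FIPI against SCI none, and in SCI+FIPI against Sham 8.

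Among the genes of long noncoding biotypes, H19 stood near the upper end in SCI against Sham, with 3 of the 1822 above it. Neat1 had 10.04% of them above it, and Rian, the lowest of the 10, had 14.4% below it. Of the 1822 genes 269 were called higher and 489 lower, beside 24.4% and 22.5% of all genes tested. After FIPI, against SCI, all 10 RNAs lay in the middle of that distribution, between 18.6% of the genes below H19 and 78.8% below Pantr1.

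**Figure D3:**
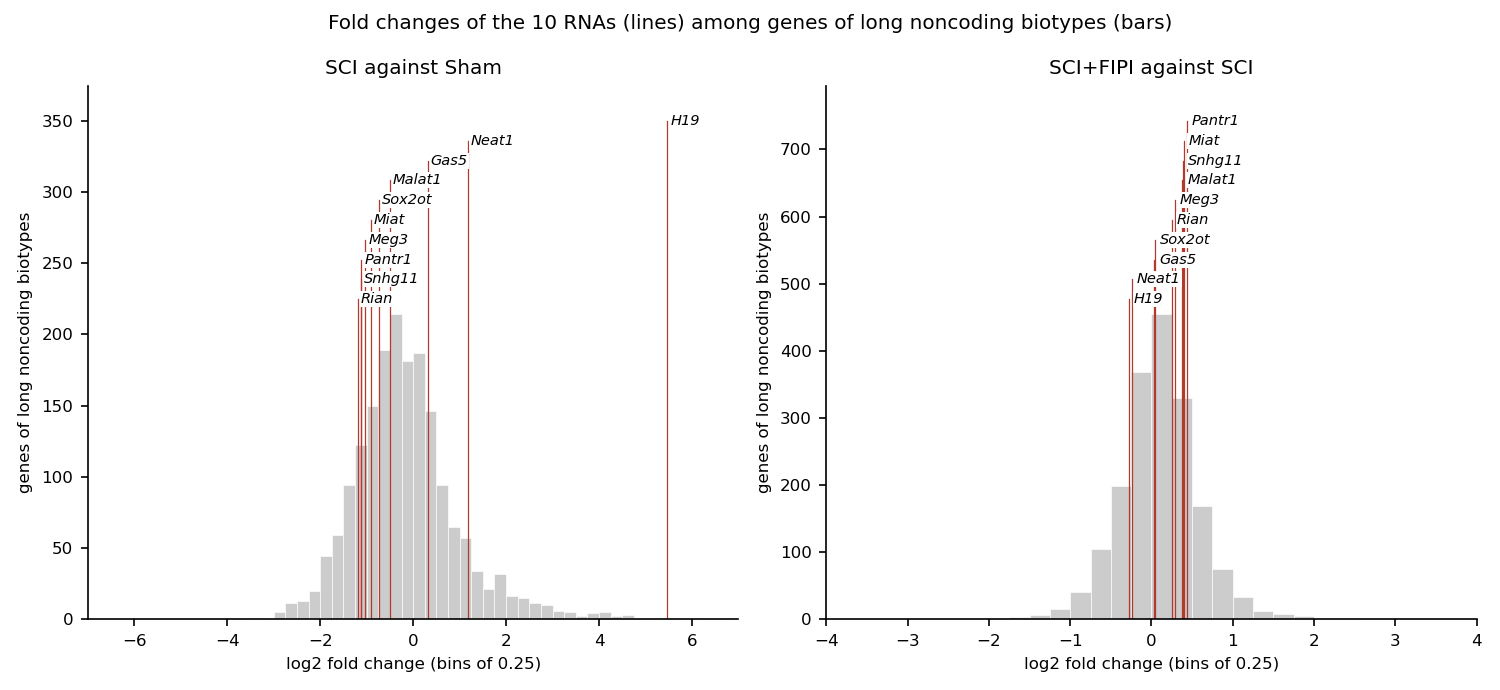
Number of genes of long noncoding biotypes (bars, vertical axes) by log2 fold change (horizontal axes, bins of 0.25) in SCI against Sham and in SCI+FIPI against SCI, with the 10 RNAs as lines whose height has no meaning. H19 stands apart on the right in SCI against Sham at 5.47, and no line lies beyond 0.5 or -0.5 in SCI+FIPI against SCI.

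Malat1 (ENSMUSG00000092341, GRCm38 chromosome 19, 5795690 to 5802672, minus strand) and Neat1 (ENSMUSG00000092274, chromosome 19, 5824708 to 5845478, minus strand) are unspliced neighbours, 22.0 kb apart on the same strand. Their mature 3′ ends are not made by ordinary polyadenylation. A tRNA-like piece is cut off after a genomic stretch of A, which pairs with U-rich stretches upstream into a triple helix. The libraries were selected on oligo(dT), so the last 80 bases before that cut are shown, with the A-rich stretch that such beads could meet in capitals. Both sequences were read from the GENCODE M21 transcripts on GRCm38. That of Malat1 lies at chr19:5795982-5796061 and that of Neat1 at chr19:5824708-5824787.
Malat1: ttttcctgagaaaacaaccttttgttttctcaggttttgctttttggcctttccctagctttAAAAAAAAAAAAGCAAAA
Neat1: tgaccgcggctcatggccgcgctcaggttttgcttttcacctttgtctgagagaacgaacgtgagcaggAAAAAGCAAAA
Malat1 has an unbroken run of 12 A there and Neat1 one of 5, and the annotated Malat1 transcript runs 292 bases past it. Neat1 is also made as a short form with an ordinary poly(A) tail, and a count per gene does not separate the forms. Levels of both RNAs in these libraries therefore depend on how oligo(dT) captured them, whose part in the differences was not tested.

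Neat1 measured 596, 629 and 461 CPM in the Sham mice, 1249, 1303 and 1253 in the SCI mice, and 1116, 1028 and 1084 in the SCI+FIPI mice. It was lowest in Sham mouse 3 and did not overlap between any pair of groups. Against Sham it rose 2.26-fold in SCI (log2 1.17 ± 0.10, adjusted p = 7.28e-08) and 1.92-fold in SCI+FIPI (log2 0.94 ± 0.10). The difference of SCI+FIPI from SCI was -0.24 ± 0.09 on the log2 scale, with an adjusted p of 0.131.

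Malat1 measured 443, 447 and 452 CPM in the Sham mice, 309, 286 and 358 in the SCI mice, and 446, 374 and 421 in the SCI+FIPI mice. The Sham mice lay within a range narrower than that of either injured group. Its log2 fold change in SCI against Sham was -0.49 ± 0.08 (adjusted p = 9.99e-05), just inside the limit, and it passed the limit at -0.58 without SCI mouse 3, at -0.50 without Sham mouse 1 and at -0.52 with total counts as the only scaling. In SCI+FIPI against SCI it was 0.38 ± 0.08 with an adjusted p of 0.0131, which became 0.0664 without SCI mouse 2.

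The log2 ratio of Neat1 to Malat1 counts does not depend on the scaling between mice. It was 0.32 ± 0.25 (SD, n = 3) in Sham, 2.00 ± 0.19 in SCI and 1.38 ± 0.07 in SCI+FIPI. No mouse of any group overlapped with another group, and each pair of groups gave an exact two-sided permutation p of 0.1, the smallest that 3 mice against 3 allow (adjusted p = 0.157 over the 36 ratio tests).

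Of 18 paraspeckle proteins 1 rose and 2 fell in SCI against Sham, beside 24.4% and 22.5% of all genes. The median log2 fold change of the 18 was 0.05. By the adjusted p alone 7 of the 18 were higher and 5 lower, beside 65.9% of all genes in either direction. Nono, which binds Neat1 in the paraspeckle core, rose from 130 ± 2.18 to 205 ± 7.95 CPM (log2 0.65 ± 0.05), while its partner Sfpq had 0.42 ± 0.06. Hnrnph3 fell by 0.56 and Zc3h6 by 0.79 on the log2 scale. Zc3h6 rose by 0.79 in SCI+FIPI against SCI and the other 17 were not called. Of all genes 2.36% were called higher there and 0.695% lower. Of 19 nuclear speckle proteins none was called in SCI against Sham, where the median was 0.01, or in SCI+FIPI against SCI. In the edgeR test 9 of these 19 had an adjusted p under 0.05 in SCI against Sham, with 6 higher and 3 lower, and the splicing factor Srsf6 had the largest of these log2 fold changes, at 0.44. Of the 19, 2 had an adjusted p under 0.05 in SCI+FIPI against SCI, both lower, which were Srsf6 and U2af2. By the same rule 670 of all 18699 genes tested were lower.

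Among 11613 well-measured genes, those whose profile over the 9 mice was closest to that of Neat1, measured as the root mean square difference of centred log2 CPM, were Pml with 0.037 and Smim3 with 0.063. Pml encodes the scaffold of another nuclear body. Their log2 fold changes in SCI against Sham were 1.25 and 1.20. Closest to Malat1 were Zfp27 with 0.083 and Gpatch4 with 0.10.

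Meg3 (ENSMUSG00000021268, chromosome 12, 109541001 to 109571726, plus strand) and Rian (ENSMUSG00000097451, chromosome 12, 109603940 to 109661716, plus strand) lie 32.2 kb apart in the imprinted Dlk1-Dio3 domain. There the maternal chromosome gives Meg3, Rian and Mirg with many small nucleolar RNAs and microRNAs, and the paternal one gives the protein-coding genes Dlk1, Rtl1 and Dio3. One of the RefSeq starts of Meg3 has a cAMP response element before it, TGACGTCA, the site of CREB-family factors. A window around it is shown in the RefSeq promoter table (GRCm38.p6) from chr12:109540926-109541035, plus strand, with the element in capitals, beside the window of Gas5 at chr1:161035096-161035205, plus strand, the only other of the 6 RNAs with a window in that table that holds it.
Meg3: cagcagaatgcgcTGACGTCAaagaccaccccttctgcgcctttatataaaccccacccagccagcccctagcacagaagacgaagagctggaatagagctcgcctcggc
Gas5: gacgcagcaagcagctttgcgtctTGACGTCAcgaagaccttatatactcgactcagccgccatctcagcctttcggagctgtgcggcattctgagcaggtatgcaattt
The element starts 57 bases before the RefSeq start in Meg3 and 46 bases before it in Gas5. Neat1, H19, Sox2ot and Pantr1 were not searched. Meg3 and Gas5 each have a second start in the table, whose windows (chr12:109545148-109545447 and chr1:161034351-161034650) do not hold the element. TGACGTCA, which is its own reverse complement, occurred in 588 of all 32851 windows of 300 bases (1.79%). The part of the element in the levels of Meg3 and Gas5 was not tested.

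Meg3 measured 4327, 4436 and 4443 CPM in the Sham mice, 2198, 2299 and 1988 in the SCI mice, and 2812, 2649 and 2449 in the SCI+FIPI mice. Rian measured 463, 478 and 448 CPM, then 208.5, 215.5 and 184, and then 242, 251 and 231 in the same order. For both RNAs the 3 groups were separate, with SCI+FIPI mice between the others and nearer to SCI.

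In SCI against Sham, Meg3 fell by 1.03 on the log2 scale (SE 0.08, adjusted p = 2.35e-08) and Rian by 1.19 (SE 0.07, adjusted p = 1.89e-09). The log2 fold change of Meg3 in SCI+FIPI against SCI was 0.29 ± 0.08 (adjusted p = 0.0301) and that of Rian was 0.25 ± 0.07 (adjusted p = 0.0316), both short of the limit on the fold change. These adjusted p-values were not stable to the choice of mice. They rose to between 0.1001 and 0.125 for Meg3 without SCI mouse 3 or without SCI+FIPI mouse 1 or 2. For Rian they rose to between 0.0504 and 0.159 without SCI mouse 3 or without any of the SCI+FIPI mice. Against Sham, SCI+FIPI mice had Meg3 lower by a log2 fold change of -0.74 and Rian by one of -0.94.

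Over the Dlk1-Dio3 domain, 5 of the 8 listed genes fell in SCI against Sham and 2 rose, beside 22.5% and 24.4% of all genes. The median log2 fold change of the 8 was -0.89. The third maternal RNA, Mirg, fell by 0.81 (SE 0.08), the paternal Dlk1 by 1.44 (SE 0.13) and the neighbouring Begain, which encodes a postsynaptic protein, by 0.98 (SE 0.08). Rtl1 had -0.48 ± 0.12, inside the limit. The 2 that rose were rare. Dio3, which inactivates thyroid hormone, had counts of 1, 2 and 0 in the Sham mice and 14, 20 and 6 in the SCI mice, and Dio3os had 2, 0 and 2 against 11, 13 and 2. All 8 had a fold change above 0 in SCI+FIPI against SCI with a median of 0.33, and none was called. Of all 18699 genes tested, 9292 had a fold change above 0 there, 2.36% were called higher and 0.695% lower. In the edgeR test 3 of the 8 were higher by the adjusted p alone, beside 6.04% of all genes. These were Meg3, Rian and Begain.

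Mature microRNAs lie within both transcripts, and their sequences from RefSeq (GRCm38) are shown because they are cut from the same transcripts. The seed, bases 2 to 8, is in capitals. Those of miR-770 are exonic in Meg3 and those of miR-341 and miR-370 are intronic in Rian.
miR-770-5p: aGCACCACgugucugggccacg
miR-770-3p: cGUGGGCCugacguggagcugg
miR-341-3p: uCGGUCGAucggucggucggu
miR-370-3p: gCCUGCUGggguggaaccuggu
No seed was shared between these microRNAs, and their levels were not measured here.

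The genes closest in profile to Meg3 were Cadm2 (0.035), a neuronal adhesion protein, and Aldh5a1 (0.038), an enzyme of GABA breakdown. Closest to Rian were Gabra2 (0.033), a subunit of the GABA-A receptor, and Plcb1 (0.047). Their log2 fold changes in SCI against Sham lay between -0.98 and -1.20.

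Miat (ENSMUSG00000097767, chromosome 5, 112213228 to 112229395, minus strand), also called Gomafu, is a nuclear RNA of neurons. Its copies of ACTAAC resemble the branch point of introns and bind splicing factors. The longest Miat transcript of GENCODE M21 holds 11 of them on the RNA strand, or 1.20 per kilobase, a density reached by 0.771% of 4410 long noncoding transcripts of at least 1 kb. A stretch of 150 bases with 4 of them, from 4923 to 5072 of the transcript, is shown with the motif in capitals.
Miat: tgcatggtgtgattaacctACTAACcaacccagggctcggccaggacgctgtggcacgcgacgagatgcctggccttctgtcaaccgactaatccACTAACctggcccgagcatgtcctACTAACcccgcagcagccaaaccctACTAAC
Of the other 9 RNAs, none held more than 0.480 copies per kilobase. Of 41 gene entries whose exons overlap exons of the 10 RNAs, 40 had 0 counts in every mouse. The other, Gm26953, lies antisense to 24.3% of the Miat exons and had at most 9 counts in a mouse. Snhg11 (ENSMUSG00000044349, chromosome 2, 158375638 to 158386145, plus strand) is a host of small nucleolar RNAs that is made in neurons, and GENCODE M21 gives it a protein-coding biotype.

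Snhg11 measured 1643, 1773 and 1598 CPM in the Sham mice, 821, 785 and 695 in the SCI mice, and 1068, 998.5 and 944.5 in the SCI+FIPI mice. Miat measured 282, 272 and 280 CPM, then 160, 151 and 135, and then 201, 199.5 and 186. The 3 groups of mice were again separate for both RNAs, with SCI+FIPI between the others.

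In SCI against Sham Snhg11 fell by 1.12 (SE 0.08, adjusted p = 1.27e-08) and Miat by 0.90 (SE 0.07, adjusted p = 2.27e-08) on the log2 scale. Their log2 fold changes in SCI+FIPI against SCI were 0.39 ± 0.08 (adjusted p = 0.00989) and 0.39 ± 0.07 (adjusted p = 0.00487). For Miat the adjusted p stayed at or under 0.0353 in every alternative tried, and for Snhg11 it was 0.0509 without SCI+FIPI mouse 2. Against Sham, Snhg11 in SCI+FIPI was at -0.74. Miat was at -0.51 there, close enough to the limit that it was no longer called without Sham mouse 1 (-0.499), without SCI+FIPI mouse 3 (-0.47), with no filter or with a fit of those groups alone (both -0.49).

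Meg3, Miat, Rian and Snhg11 were each set against the neuron markers by the log2 ratio of their counts to the mean log2 count of the 16 markers. From Sham to SCI this ratio was higher by 0.45 for Meg3, 0.57 for Miat, 0.29 for Rian and 0.35 for Snhg11, and no SCI mouse overlapped a Sham mouse. Each of the 4 gave an exact permutation p of 0.1, the smallest possible. With the median of the markers in place of the mean, the difference turned to -0.07 for Rian and -0.0019 for Snhg11. For Meg3 it shrank to 0.0953 and the mice overlapped (exact permutation p = 0.3), and for Miat it was 0.22, still without overlap (exact permutation p = 0.1). Between SCI+FIPI and SCI all 4 differences were below 0, from -0.24 for Rian to -0.10 for Miat, and only Rian did not overlap. Rian relative to Meg3 was lower in SCI than in Sham by 0.17, again without overlap.

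**Figure D4:**
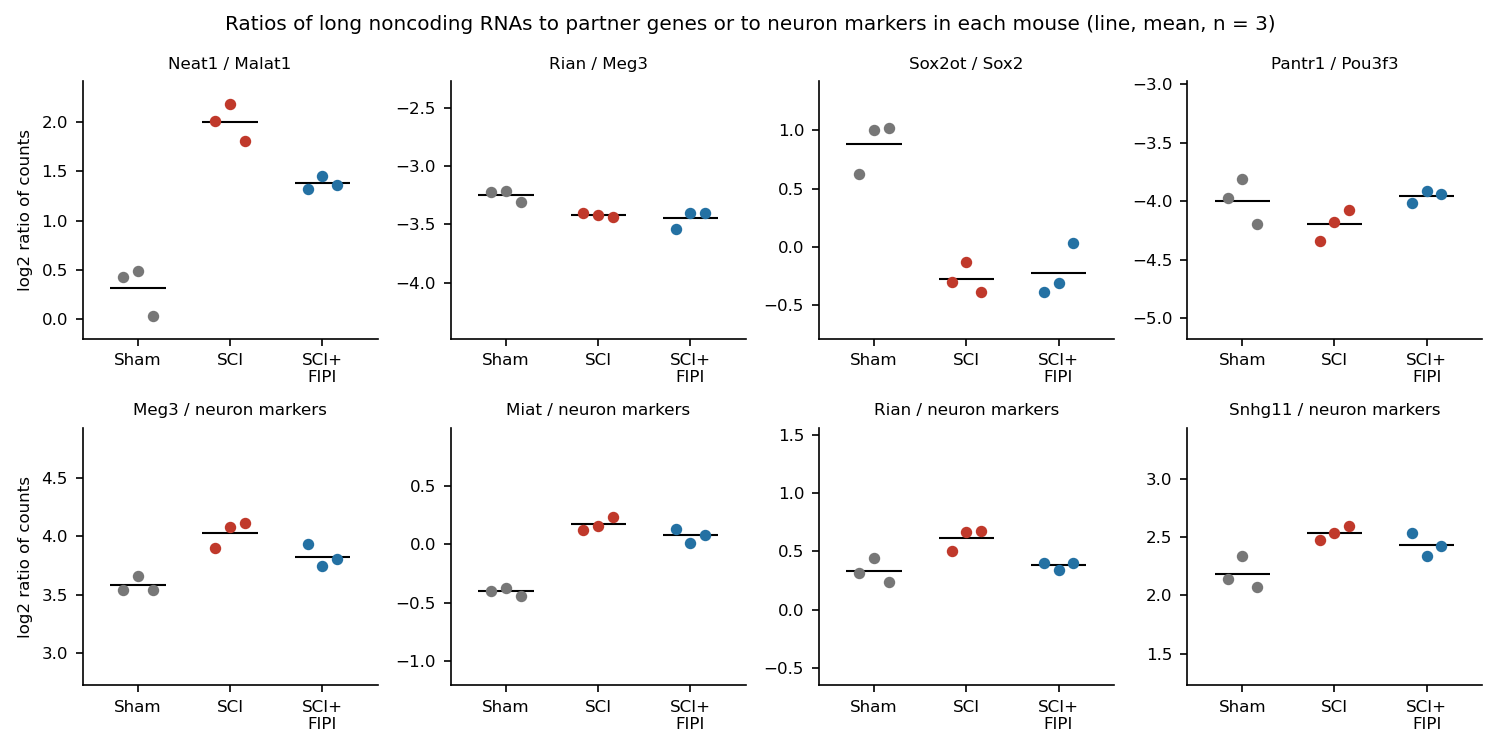
Log2 ratio of counts (vertical axes, each panel spanning at least 2.2 units) of RNAs to a partner gene or to the mean of 16 neuron markers in each mouse (points), with the mean of 3 mice as a line. Neat1 to Malat1 is separate in the 3 groups, Sox2ot to Sox2 is lower in both injured groups than in Sham, and the ratios to the mean of the neuron markers are higher in SCI than in Sham, which turned for Rian and Snhg11 with the median of the markers.

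In profile over the 9 mice, Miat was closest to Stk39 (0.037), a kinase that acts on ion cotransporters, and Sorcs1 (0.039), a neuronal sorting receptor. Closest to Snhg11 were Gpr158 (0.049) and Thrb (0.051), a thyroid hormone receptor.

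Sox2ot (ENSMUSG00000105265, chromosome 3, 34104270 to 34682619, plus strand) spans the gene of Sox2 on the same strand. Sox2 keeps neural stem cells and is also made by astrocytes and ependymal cells. Pantr1 (ENSMUSG00000060424, chromosome 1, 42590782 to 42694842, minus strand) lies 0.925 kb from Pou3f3, a POU-domain factor of neural progenitors and astrocytes, and is read in the opposite direction.

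Sox2ot measured 91.9, 94.2 and 104 CPM in the Sham mice, 59.6, 58.5 and 56.3 in the SCI mice, and 56.8, 59.0 and 64.3 in the SCI+FIPI mice. Every injured mouse, treated or not, was below every Sham mouse, and the injured groups overlapped. It fell by 0.73 (SE 0.07, adjusted p = 1.50e-07) in SCI and by 0.69 (SE 0.07) in SCI+FIPI on the log2 scale, and the difference between these groups was 0.05 ± 0.07.

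Sox2 itself was at 52.6 ± 6.52 CPM in Sham, 70.3 ± 5.41 in SCI and 70.0 ± 6.16 in SCI+FIPI, a log2 fold change of 0.42 ± 0.09 in SCI against Sham (adjusted p = 0.00135), inside the limit. The log2 ratio of Sox2ot to Sox2 was accordingly lower by 1.15 in SCI than in Sham and by 1.10 in SCI+FIPI. No injured mouse overlapped a Sham mouse in this ratio, with an exact permutation p of 0.1 in each case. Sox2ot was also lower relative to the mean of 10 astrocyte markers, by 0.55 in SCI. Of those markers 2 rose and 3 fell in SCI against Sham, beside 24.4% and 22.5% of all genes. Of 10 oligodendrocyte markers none rose and 6 fell in SCI against Sham, with a median log2 fold change of -0.62. Their median in SCI+FIPI against SCI was 0.09, and no ratio of Sox2ot to them was tested.

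Pantr1 was rare, with counts of 129, 149 and 130 in the Sham mice, 69, 69 and 61 in the SCI mice, and 82, 91 and 89 in the SCI+FIPI mice. The 3 groups did not overlap, either in counts or in CPM. In SCI against Sham it fell by 1.11 (SE 0.15, adjusted p = 1.21e-05) on the log2 scale. It had the highest log2 fold change of the 10 in SCI+FIPI against SCI, at 0.44 ± 0.16, with an adjusted p of 0.0932.

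Its neighbour Pou3f3 fell by 0.90 (SE 0.09) in SCI against Sham, from 96.1 ± 4.88 to 51.5 ± 7.65 CPM, and had 0.18 ± 0.09 in SCI+FIPI against SCI. The log2 ratio of Pantr1 to Pou3f3 overlapped between SCI and Sham (difference -0.20, exact permutation p = 0.3). In SCI+FIPI against SCI the ratio was higher by 0.24, and the mice did not overlap. Closest in profile to Pantr1 were Ppp3ca (0.052), the catalytic subunit of calcineurin, and Dclk3 (0.061). Closest to Sox2ot were Tppp (0.046), a tubulin-binding protein of oligodendrocytes, and Bicdl1 (0.054).

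Gas5 (ENSMUSG00000053332, chromosome 1, 161034422 to 161038539, plus strand) is spliced into a short RNA that is translated poorly and decays when translation runs, while its introns give box C/D small nucleolar RNAs that guide methylation of ribosomal RNA. Some genes of this kind start with a C followed by pyrimidines. The Gas5 window printed above has such a start, and the window of its other RefSeq start does not. The window of Miat, which is not among the listed hosts, has such a start too. A start of C and 4 more pyrimidines was found in 4 of 22 small nucleolar RNA host genes (18.2%) and in 813 of all 27025 genes (3.01%).

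Gas5 measured 51.9, 59.9 and 47.8 CPM in the Sham mice, 67.3, 64.9 and 66.7 in the SCI mice, and 68.8, 65.2 and 69.9 in the SCI+FIPI mice. The Sham mice spread more than the injured mice and all lay below them. Its log2 fold change was 0.32 ± 0.07 in SCI against Sham (adjusted p = 0.00160) and 0.35 ± 0.07 in SCI+FIPI against Sham (adjusted p = 0.000833), both inside the limit. In SCI+FIPI against SCI it was 0.04 ± 0.07.

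Among the 19 small nucleolar RNA host genes tested, Gas5 and Snhg11 included, 8 rose and 4 fell in SCI against Sham. This compares with 24.4% and 22.5% of all genes, and the median log2 fold change of the 19 was 0.32. Snhg18 rose by 1.49 ± 0.18, Snhg1 by 0.91 ± 0.15, Snhg5 by 0.89 ± 0.14 and Rack1, which encodes a protein of the small ribosomal subunit, by 1.45 ± 0.06. The 4 that fell were Snhg11, Snhg14, which is imprinted and made in neurons, and the protein-coding Eif4a2 and Nop56. The ratio of Gas5 to the mean of 18 other hosts overlapped between SCI and Sham, with a log2 difference of 0.07. It turned to -0.24 with the median of the hosts. No host was called in SCI+FIPI against SCI, and the median was 0.05. Of all genes 2.36% were called higher there and 0.695% lower. In the edgeR test 2 of the 19 were higher by the adjusted p alone there, beside 6.04% of all genes. They were Snhg11 and Snhg14. Closest to Gas5 in profile were Sspn (0.044) and Sertad2 (0.055).

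H19 (ENSMUSG00000000031, chromosome 7, 142575529 to 142578143, minus strand) is an imprinted RNA of fetal tissues that is silenced after birth in most organs and lies 72.6 kb from the growth factor gene Igf2, with which it shares enhancers. One of its exons carries a microRNA hairpin, and the mature sequences from RefSeq are shown with the seed in capitals, since they are the best known product of this RNA.
miR-675-5p: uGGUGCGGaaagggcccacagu
miR-675-3p: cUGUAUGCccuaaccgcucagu

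H19 had counts of 52, 458 and 339 in the Sham mice, 13814, 10430 and 14899 in the SCI mice, and 9671, 11794 and 9964 in the SCI+FIPI mice. In CPM these were 2.49, 19.8 and 14.2, then 579, 431 and 629, and then 432, 500 and 418. Every injured mouse was far above every Sham mouse, the injured groups overlapped, and Sham mouse 1 was lowest.

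In SCI against Sham H19 rose by 5.47 ± 0.60 on the log2 scale, or 44.5-fold (adjusted p = 0.000211), and in SCI+FIPI against Sham by 5.19 ± 0.60, or 36.6-fold. The size rested in part on single Sham mice, with a log2 fold change of 5.01 without Sham mouse 1 and 6.0014 without Sham mouse 2. In SCI+FIPI against SCI it was -0.28 ± 0.48, with an adjusted p of 0.779.

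Igf2 rose with it, from counts of 1960, 4192 and 4769 in the Sham mice to 27025, 20092 and 35250 in the SCI mice (log2 2.86 ± 0.36). The log2 ratio of H19 to Igf2 was higher by 3.02 in SCI than in Sham, where it varied widely (SD 1.04), and did not overlap. Fibroblast markers were also higher after contusion. Their sum was 370, 1005 and 893 CPM in the Sham mice, lowest in mouse 1 as for H19 and Igf2. It was 9433, 12730 and 12040 CPM in the SCI mice and 8738, 11180 and 9007 in the SCI+FIPI mice. In SCI mouse 2 this sum was highest and H19 lowest, and in SCI+FIPI mouse 2 both were highest. All 9 fibroblast markers rose in SCI against Sham, beside 24.4% of all genes. None of the defining markers was at 0, and the part of the fibroblast markers in the H19 result was not tested. The 9 macrophage markers rose as well and summed to 394, 696 and 619 CPM in the Sham mice. Of these markers Lyz2, Gpnmb, Cd68 and Ms4a7 were lowest in Sham mouse 3. Mrc1, Arg1, Ccr2, Fn1 and Msr1 were lowest in Sham mouse 1, as was the sum. The sum of the 9 macrophage markers was 11360, 10550 and 12870 CPM in the SCI mice and 10140, 7350 and 8047 in the SCI+FIPI mice. Their part in the H19 result was not tested either.

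Of the 13 imprinted genes listed with H19, 6 rose in SCI against Sham and 4 fell, beside 24.4% and 22.5% of all genes. The median log2 fold change of the 13 was 0.21. Besides H19 and Igf2, the Igf2 receptor Igf2r rose by 1.47 ± 0.09 and Dcn, which is also among the fibroblast markers above, by 1.89 ± 0.31. Grb10, an adaptor that restrains insulin signalling, rose by 0.69 ± 0.10 and the cell cycle inhibitor Cdkn1c by 0.58 ± 0.17. Peg3 fell by 1.30 (SE 0.08), Dlk1 by 1.44, Ndn, a protein of postmitotic neurons, by 0.93 and Gnas by 0.74 on the log2 scale. The 3 imprinted RNAs among the 10 thus moved apart, with H19 higher and Meg3 and Rian lower. None of the 13 was called in SCI+FIPI against SCI, where 3 had an adjusted p under 0.05 in the edgeR test, with Peg3 and Gnas higher and Igf2r lower. Of all 18699 genes tested, 1130 were higher and 670 lower by the adjusted p alone there. The genes closest in profile to H19 were Arg1 (0.656), an enzyme of macrophages, and Col1a1 (0.685), a collagen of fibroblasts. Both genes named for each of the other 9 RNAs lay at 0.10 or less, but H19 also varied more, with a root mean square of 2.83 over the mice against 0.181 to 0.526 for the others.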

How the data were processed

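Polyadenylated RNA of 9 spinal cords was sequenced and the authors deposited raw read counts per gene in 1 table. The submitters' processing notes name GRCm38 and R 4.2.3, while the aligner, the counter, the annotation and the use of strand are not given in the sources used here. Without strand, a gene and its antisense partner cannot be told apart. Of 52550 gene IDs, 52403 were in GENCODE M21, which supplied names, positions and exon lengths. The 10 RNAs, the gene lists and the tests were chosen with earlier results of these data known.

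Counts were fitted in R 4.3.3 with edgeR 4.0.16 (TMM, filterByExpr, robust quasi-likelihood test, 1 mean per group over 9 mice), with Benjamini-Hochberg adjustment over 18699 genes. Changes are given as log2 fold change ± SE, and mean levels as mean ± SD, with n = 3 mice per group. The limits of 0.5 and 0.05 follow the study's methods. The model was tested on simulated data. The labels number the libraries within each group and the study gives n = 3, which was read as separate animals. No pair of libraries of a group agreed within sampling noise. CPM are counts scaled to the TMM library size, and FPKM were computed from exon length. Ratios, with 0.5 added to each count, were tested by exact two-sided permutation over mice, adjusted over 36 tests, in Python 3.11.15. Named genes are the 10 RNAs, members of the lists and, for each RNA, the 2 closest profiles among genes whose mean log2 CPM reached 3. Alternatives were DESeq2 1.42.0, limma-voom (limma 3.58.1), other scalings and filters, a replicate block, fits of 2 groups, and each mouse left out.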

Additional observations from a re-analysis of the deposited data

How the results depend on the processing

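Of 48 alternative counts of called RNAs, 47 stayed within 1.5 times the main count. The exception was SCI+FIPI against SCI, with 5 called by the adjusted p alone against 0. Of 450 alternative log2 fold changes, 442 kept their direction and side of the limits, 4 fell short of a limit they had passed, 3 newly passed one and 1 turned, which was Sox2ot in SCI+FIPI against SCI at -0.0064 without SCI+FIPI mouse 3 (up to 0.0834 without mouse 1). Replicate numbers did not pair the mice (correlations of same-numbered mice from -0.073 to 0.108), and with the replicate block 8, 0 and 8 RNAs were called in SCI against Sham, SCI+FIPI against SCI and SCI+FIPI against Sham. Meg3 in SCI+FIPI against SCI then had an adjusted p of 0.0506. Neat1 in that comparison ranged from 0.00994 with no filter to 0.366.

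Of 273 alternative ratios, 257 kept their direction. With the median of the list, log2 differences turned in SCI against Sham for Rian (-0.0713) and Snhg11 (-0.0019) to neuron markers and Gas5 to other hosts (-0.2385), in SCI+FIPI against SCI for Gas5 (0.0726), and in SCI+FIPI against Sham for Meg3 (-0.0235), Rian (-0.2204), Snhg11 (-0.0179) and Gas5 (-0.1659). Leaving out single mice, the ranges that crossed 0 in SCI+FIPI against SCI were -0.0543 to 0.0150 for Rian to Meg3, -0.0729 to 0.134 for Sox2ot to Sox2, -0.1132 to 0.0061 for Sox2ot to astrocyte markers, -0.0916 to 0.266 for H19 to Igf2 and -0.0639 to 0.0189 for Gas5, and in SCI+FIPI against Sham -0.0631 to 0.130 for Pantr1 to Pou3f3. The causes were not tested. With 3 mice per group no ratio could reach p under 0.1.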

Other observations

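Host transcripts of microRNAs moved both ways after contusion. Of 10 tested, 5 rose and 4 fell in SCI against Sham (edgeR test, same limits), beside 24.4% and 22.5% of all genes. The neuronal miR-124 hosts Mir124a-1hg and Mir124-2hg fell by 1.40 (SE 0.07) and 1.76 (SE 0.11) on the log2 scale. Mir22hg rose by 1.12 ± 0.15, and Mir142hg, the host of a microRNA of blood cells, rose by 2.61 ± 0.57 from a mean of 0.241 to 1.47 CPM. After FIPI, against SCI, Mir124-2hg rose by 0.66 ± 0.12 (adjusted p = 0.00516) and Mir17hg, the host of the miR-17-92 cluster, fell by 1.16 (SE 0.31, adjusted p = 0.0301) from a mean of 2.50 CPM. Thus 1 of the 10 was called higher there, beside 2.36% of all genes, and 1 lower, beside 0.695%.

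Among 23 other known long noncoding RNAs tested, 8 fell and 3 rose in SCI against Sham, beside 22.5% and 24.4% of all genes. The neural RNA Tunar fell by 1.67 (SE 0.14) and was the only one of the 23 called in SCI+FIPI against SCI, at 0.59 ± 0.15 (adjusted p = 0.0258). Of all genes 2.36% were called higher in SCI+FIPI against SCI. In SCI against Sham 1700020I14Rik fell by 1.32 (SE 0.06), from 335 to 134 CPM. Tug1 (0.17 ± 0.06) and Firre (-0.08 ± 0.06) were inside the limit in SCI against Sham. Of 6 other imprinted noncoding RNAs, Peg13 fell by 1.44 (SE 0.09), Snhg14 by 1.36 and Mirg by 0.81, and Dio3os rose. Kcnq1ot1 (-0.495 ± 0.10) and Airn (-0.12 ± 0.18) were not called. In the edgeR test Kcnq1ot1 had an adjusted p of 0.000363 and lay just inside the limit on the fold change, while Airn had 0.573. None of these 6 was called in SCI+FIPI against SCI, where all 6 had a fold change above 0 and Peg13 and Snhg14 had an adjusted p under 0.05 in the edgeR test. Of all 18699 genes tested, 9292 had a fold change above 0 there and 6.04% were higher by the adjusted p alone.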
